A study of Mus musculus with 7 samples.

Results

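The regions described here are peaks of the POU-domain factor Oct1 (gene Pou2f1) that were listed at day 3 of mesodermal differentiation of mouse embryonic stem cells (ESCs) and in none of the other 3 peak lists of the series. The members were chosen by measured values, namely the authors' peak calls: a day 3 Oct1 peak was taken when it overlapped, by at least 1 bp, no Oct1 peak at day 6, no Oct1 peak in undifferentiated ESCs and no Oct4 (Pou5f1) peak in ESCs. The rule found 819 of the 4867 day 3 peaks (16.8%), in a series of 53151 peaks over 4 lists. All 4 chromatin immunoprecipitation libraries came from parental cells, with 1 library each for Oct1 in ESCs, Oct4 in ESCs, Oct1 at day 3 and Oct1 at day 6. The differentiating cells were kept with Bmp4 for 2 days and then with Rspo3 and the BMP receptor inhibitor LDN-193189 for 4 days, so that day 3 falls after the switch and day 6 at the end. The name of the ESC line and the mix of cells at day 3 are not given in the sources used here, and peak lists measure no expression, so the cell type could not be checked against markers.

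Oct1 is made in most cell types and binds an octamer of bases through a bipartite POU domain, the same kind of element that the pluripotency factor Oct4 binds. It is best known from the octamers of histone H2B and small nuclear RNA promoters. The series title places it beside Smad factors, which carry TGF-beta and BMP signals into the nucleus, in the choice of a mesodermal fate. Membership rests on the absence of a listed peak, which depends on the depth and threshold of the other lists, so "day 3 only" below means listed only at day 3. With 1 library a group there was no replicate error and no test between libraries. The intervals below are exact Clopper-Pearson 95% intervals, which cover the counting of peaks, genes or promoters alone.

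The sequences that follow are promoters that day 3 only peaks overlapped. They come from RefSeq (GRCm38.p6, the build that the labels name as mm10), run 5′ to 3′ on the strand of the gene, and span 250 bases before to 50 bases after its start. Day 3 only peaks overlapped 212 such promoters (0.645% of 32851) of 198 genes, and 8 of them held the octamer ATGCAAAT on either strand. The 4 shown first are those with the octamer under the highest-scoring peaks. The capitals mark the octamer, which lay at -200 from the gene start in H2ac20, -147 in Cdx2, -38 in Pcyt1b and -129 in H2ac4. The windows are chr3:96220831-96221130 (minus strand), chr5:147307200-147307499 (minus), chrX:93674862-93675161 (plus) and chr13:23750838-23751137 (plus). The octamers of Cdx2 and Pcyt1b lay inside the peak, that of H2ac4 crossed the edge of its peak, and that of H2ac20 lay outside.
H2ac20: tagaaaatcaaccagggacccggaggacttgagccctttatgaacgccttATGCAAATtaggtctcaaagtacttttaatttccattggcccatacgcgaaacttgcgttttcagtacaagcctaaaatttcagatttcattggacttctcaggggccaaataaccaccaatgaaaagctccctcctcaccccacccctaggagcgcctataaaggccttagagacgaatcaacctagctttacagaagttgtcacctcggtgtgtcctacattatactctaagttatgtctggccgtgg
Cdx2: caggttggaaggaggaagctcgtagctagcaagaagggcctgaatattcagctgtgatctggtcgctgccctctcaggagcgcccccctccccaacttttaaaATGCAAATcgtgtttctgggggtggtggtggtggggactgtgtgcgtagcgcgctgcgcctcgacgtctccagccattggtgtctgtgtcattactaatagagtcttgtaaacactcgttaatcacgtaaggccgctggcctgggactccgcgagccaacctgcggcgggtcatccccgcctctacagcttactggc
Pcyt1b: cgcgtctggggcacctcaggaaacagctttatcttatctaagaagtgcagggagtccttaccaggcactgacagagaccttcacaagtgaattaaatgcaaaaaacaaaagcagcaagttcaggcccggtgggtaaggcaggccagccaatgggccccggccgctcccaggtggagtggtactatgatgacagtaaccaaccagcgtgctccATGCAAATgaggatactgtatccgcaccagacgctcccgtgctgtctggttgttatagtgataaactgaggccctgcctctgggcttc
H2ac4: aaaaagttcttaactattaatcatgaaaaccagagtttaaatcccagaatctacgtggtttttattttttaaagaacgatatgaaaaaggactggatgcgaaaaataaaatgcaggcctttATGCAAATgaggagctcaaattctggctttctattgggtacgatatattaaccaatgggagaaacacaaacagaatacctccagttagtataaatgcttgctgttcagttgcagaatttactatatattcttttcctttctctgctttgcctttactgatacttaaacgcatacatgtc

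The next 4 promoters belong to the highest-scoring day 3 only peaks with a promoter in the table apart from those above. None of these windows held the octamer. Capitals mark the CCAAT box (CCAAT, or ATTGG where it lies on the other strand) and the TATA box (TATAAA), which are common at histone genes. The windows are chr6:124741020-124741319 (minus strand) for Grcc10, chr13:23562336-23562635 (minus) for H3c6, chr13:21717378-21717677 (plus) for H3c10 and chr13:23752095-23752394 (plus) for H3c2. The 3 histone H3 promoters held 2 to 4 CCAAT boxes in the window, and H3c10 and H3c2 also held a TATA box, at -31 and -29.
Grcc10: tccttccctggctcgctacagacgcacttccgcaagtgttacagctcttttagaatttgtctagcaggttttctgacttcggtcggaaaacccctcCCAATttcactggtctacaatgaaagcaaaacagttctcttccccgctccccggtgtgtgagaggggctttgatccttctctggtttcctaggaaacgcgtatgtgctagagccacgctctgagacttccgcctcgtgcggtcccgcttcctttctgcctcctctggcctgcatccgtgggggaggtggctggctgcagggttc
H3c6: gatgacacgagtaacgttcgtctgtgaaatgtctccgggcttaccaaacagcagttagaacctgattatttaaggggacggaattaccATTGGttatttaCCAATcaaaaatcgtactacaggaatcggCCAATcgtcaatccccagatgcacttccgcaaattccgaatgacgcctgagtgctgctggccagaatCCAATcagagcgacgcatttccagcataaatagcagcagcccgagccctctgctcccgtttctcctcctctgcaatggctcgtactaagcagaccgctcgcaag
H3c10: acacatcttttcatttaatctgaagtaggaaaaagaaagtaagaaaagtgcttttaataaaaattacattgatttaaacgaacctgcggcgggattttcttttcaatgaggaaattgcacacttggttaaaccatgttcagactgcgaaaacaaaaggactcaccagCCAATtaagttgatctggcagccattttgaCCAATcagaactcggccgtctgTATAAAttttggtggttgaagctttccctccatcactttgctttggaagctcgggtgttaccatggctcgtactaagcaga
H3c2: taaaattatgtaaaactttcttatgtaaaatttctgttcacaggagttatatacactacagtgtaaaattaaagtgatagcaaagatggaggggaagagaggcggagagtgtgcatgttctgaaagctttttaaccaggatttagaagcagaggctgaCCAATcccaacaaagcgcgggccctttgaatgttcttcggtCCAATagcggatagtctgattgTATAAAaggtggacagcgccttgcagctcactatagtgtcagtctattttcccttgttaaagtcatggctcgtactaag

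Most day 3 only peaks were among the weaker ones of their list. The authors' score, a whole number per peak without a stated unit, had a median of 98 (quartiles 65 and 166) and ran from 25 to 2058. This put the median member at percentile 22.7 of the day 3 list, against 61.4 for the 2297 day 3 peaks shared with day 6 and no ESC list, and 33.0 for the 1044 shared with ESC Oct1 and not with day 6. The 180 day 3 peaks shared with ESC Oct4 and not ESC Oct1 were lower still, with a median score of 87 at percentile 18.3. Of the 487 day 3 peaks with the lowest scores (25 to 66), 213 were listed only at day 3 (43.7%, 39.3 to 48.3), and of the 486 with the highest (622 and above), 22 were (4.53%, 2.86 to 6.77). The score belongs to the library that the rule used, so this is a description. Members were also narrower, with a median width of 560 bp against 600 bp in both of those classes.

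**Figure D1:**
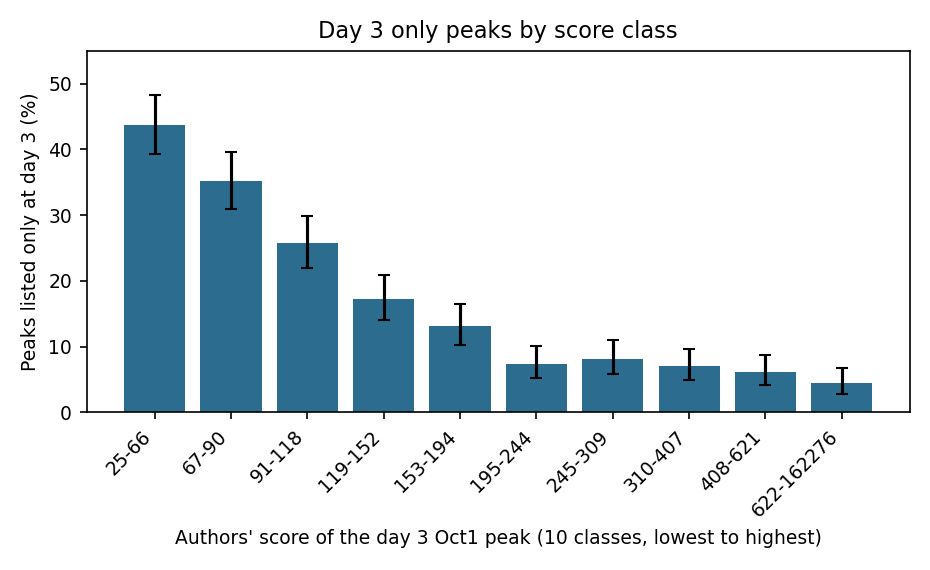
Share of day 3 Oct1 peaks listed only at day 3 (y axis, %), in 10 classes of the authors' score from lowest to highest (x axis, score range of each class). Bars carry exact 95% intervals of the peak count, and the share goes from 43.7% in the lowest class to 4.53% in the highest.

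Many members lay near a peak of another list without touching it. The median distance to the nearest peak of any other list was 10.4 kb, with 71 members (8.67%) within 1 kb and 403 (49.2%) within 10 kb. The nearest day 6 Oct1 peak was further away (median 57.6 kb) than the nearest ESC Oct1 peak (19.4 kb) or ESC Oct4 peak (18.2 kb), in lists that differ in length. At the edge of the rule, the closest misses were a peak inside Ccdc191 that abutted an Oct4 peak (score 40), a peak inside Bphl 40 bp from an ESC Oct1 peak (score 58), and a peak inside Pnldc1 50 bp from one (score 68). Just outside the rule were day 3 peaks with Slc6a3, Endov and Slc24a5 as nearest genes, which overlapped a peak of another list by 10, 20 and 30 bp and scored 124, 1090 and 56.

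By position, members differed from the day 3 peaks that were kept to day 6. Of the members, 265 (32.4%, 29.2 to 35.7) had a midpoint no more than 1 kb from a gene end (either end, genes of any kind), against 84.4% (82.8 to 85.8) of the day 3 and day 6 peaks absent from ESCs. Day 3 peaks shared with ESC Oct1 and not with day 6 were nearer to the members, at 23.2% (20.7 to 25.9). With protein-coding genes alone, 217 members (26.5%) lay within 1 kb of an end, 340 (41.5%) lay inside a protein-coding gene over 1 kb from its ends, and the other 262 (32.0%) lay outside any such gene and over 1 kb away. The gene table used here lists no exons, so exonic and intronic peaks could not be separated. Members at gene ends had higher scores (median 151) than the other 554 (median 83.5), and the share at gene ends was 21.6% in the lowest score class and 68.2% in the highest.

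**Figure D2:**
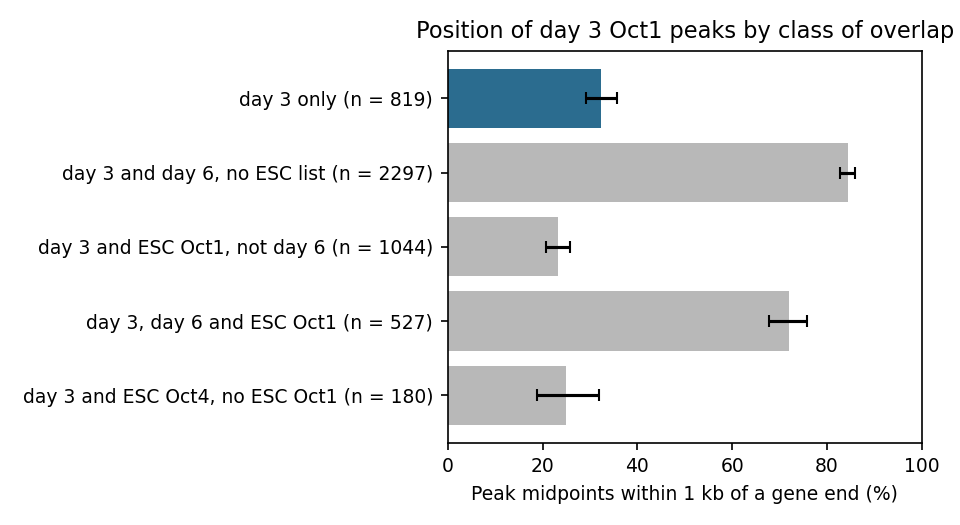
Share of day 3 Oct1 peaks with a midpoint within 1 kb of a gene end (x axis, %), by the other lists they overlap (y axis, with the number of peaks). Bars carry exact 95% intervals, and the day 3 only class, at 32.4%, lies above the class shared with ESC Oct1 and not day 6 (23.2%) and the ESC Oct4 class (25%), and below the other 2 classes.

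Replication-dependent histone genes, which supply the core and linker histones made during DNA synthesis, were the gene group with the most day 3 only peaks. Of 64 such genes, 25 had a day 3 only peak within 1 kb of an end (39.1%), where 239 of all 21887 protein-coding genes did (1.09%). The group stands out at day 3 in any case, since 56 of the 64 (87.5%) had some day 3 Oct1 peak at an end, against 14.0% of all protein-coding genes. Neighbouring histone genes share peaks, so the 25 genes correspond to 20 peaks, 17 on chromosome 13 and 3 on chromosome 3. These 20 scored higher than most members, from 152 to 1051 with a median of 512, and 18 of them were in the upper 50% of the day 3 list. In ESCs, Oct1 peaks lay at the ends of 30 of the 64 genes (46.9%, against 8.52% of all protein-coding genes), and at day 6 at 17 (26.6%, against 29.5%).

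The histone types differed in how far their day 3 peaks were shared. Among the 24 H3 and H4 genes, all had a day 3 Oct1 peak at an end, but 6 had one in ESCs and 5 at day 6, and 16 (66.7%, 44.7 to 84.4) had a day 3 only peak. Of the 16, H3c7 counted through a peak inside H2bc9 (score 181), while the day 3 peak over H3c7 itself (score 788) was shared. H3c7 and H3c3 also had a day 6 peak at an end. Among the 35 H2A and H2B genes, 27 had a day 3 peak, 20 had one in ESCs and 11 at day 6, and 8 (22.9%, 10.4 to 40.1) had a day 3 only peak. These counts are for annotated gene ends, and leave out H2bc6, whose annotation is long and which held a day 3 only peak (score 330) inside, over a promoter with the octamer and 2105 bp from its nearer end. Shared day 3 peaks alone were listed at 9 H2A and 10 H2B genes, many of which lie back to back around a common promoter. Of the 5 linker histone H1 genes, H1f4 alone had a day 3 only peak (score 429), and the other 4 had day 3 peaks shared with another list. Genes of a cluster are not independent, and no test of the difference between types was made. The difference was mostly lost when day 3 peaks within 10 kb of another, as in the clusters, were left out. Day 3 only peaks then remained at 0 H3, 3 H4, 2 H2A and 1 H2B genes. With peaks of other lists within 1 kb also counted as shared, the numbers were 4 H3, 8 H4, 4 H2A and 2 H2B genes.

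**Figure D3:**
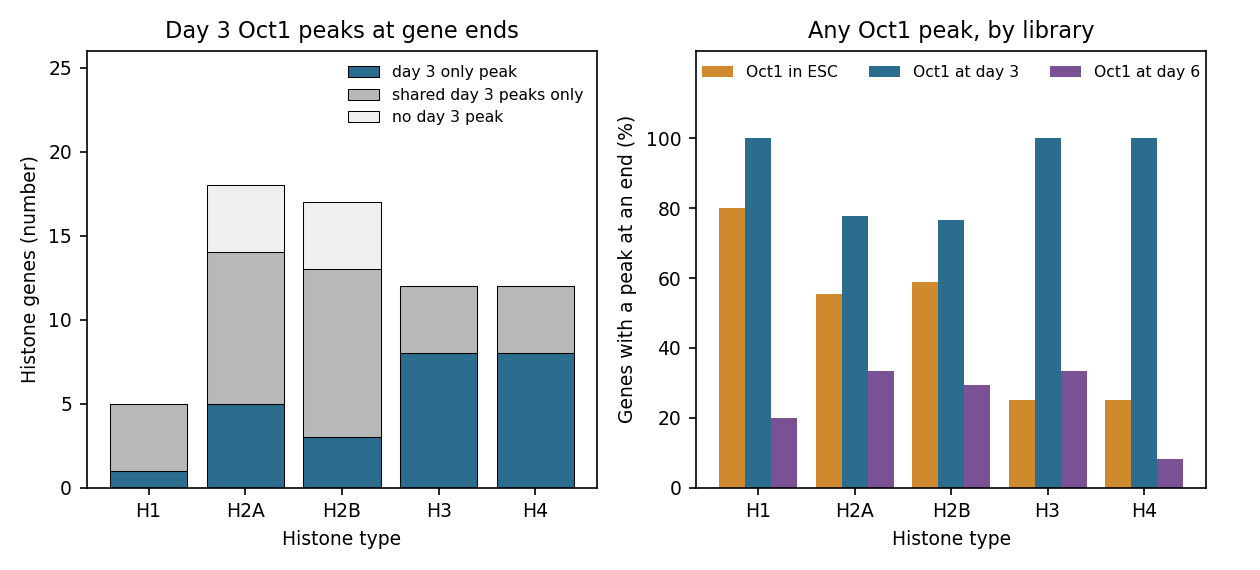
Left: number of replication-dependent histone genes (y axis) of each type (x axis) with a day 3 only Oct1 peak within 1 kb of an end, with shared day 3 peaks alone, or with none at an end (H2bc6, with a day 3 only peak inside, is among these). Right: percent of genes of each type with any Oct1 peak at an end in each library, where every H3 and H4 gene has a day 3 peak and 25% of each have an ESC Oct1 peak.

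The strongest histone members lay over H3 and H4 genes. H3c6 (gene ID 319151) had the highest score, 1051 (rank 216 of 4867), in a peak at chr13:23561821-23562590. Its nearest peaks elsewhere were 11.4 kb away at day 6, 6 kb away for ESC Oct1 and 6.06 kb away for ESC Oct4. H3c10 (gene ID 319152; chr13:21717441-21718210) followed with 993, and there the nearest ESC Oct1 peak was 3.46 kb away while those of ESC Oct4 and day 6 were 61.8 and 68.6 kb away. H3c2 (gene ID 319150) scored 949 and H4c8 (gene ID 69386) 943, with no peak of another list closer than 4.86 and 12.4 kb. H3c3 (gene ID 319148; score 932) was the least isolated of the leading ones, since a day 6 peak lay 0.42 kb and an ESC Oct1 peak 0.71 kb away. On chromosome 3, a peak of 1310 bp (chr3:96219761-96221070, score 743) covered H2ac21 and H2ac20 and stopped beside H2bc21, with no other list's peak within 19.1 kb. A peak of score 718 lay over H2ax (gene ID 15270; chr9:44334431-44335270), which encodes the H2A variant phosphorylated at DNA breaks and lies outside the clusters.

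At H3 and H4 genes, most of these peaks sat over the body of the short gene. For the 14 H3 and H4 genes with a start in the promoter table and a day 3 only peak, the peak's midpoint lay 40 to 397 bp downstream of the start (median 194), and 15 of the 24 H3 and H4 genes held the midpoint of a day 3 only peak inside the gene. Of the 35 H2A and H2B genes 5 did so, H2bc6 among them, with offsets from -447 to 1228 bp in the 7 that had a start. Only 16 of the 24 and 8 of the 35 had a day 3 only peak at an end, so these counts partly restate that difference. With any day 3 peak counted, the midpoint lay inside 10 of 12 H3, 10 of 12 H4 and 5 of 5 H1 genes. It lay inside 4 of 18 H2A and 6 of 17 H2B genes, so the position was not particular to day 3 only peaks. The coding parts of histone genes of a type are nearly identical, and how reads that match several copies were placed is not given in the sources used here, so which copies carried the signal is uncertain and the part of such reads in the result was not tested. Leaving out day 3 peaks with another day 3 peak within 10 kb, which by construction takes out neighbouring peaks of the clusters, left 7 histone genes with a day 3 only peak, 3 of them H4 and 0 of them H3. Counting a peak of another list within 1 kb as shared lowered the H3 genes from 8 to 4 and left 8 H4 genes.

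**Figure D4:**
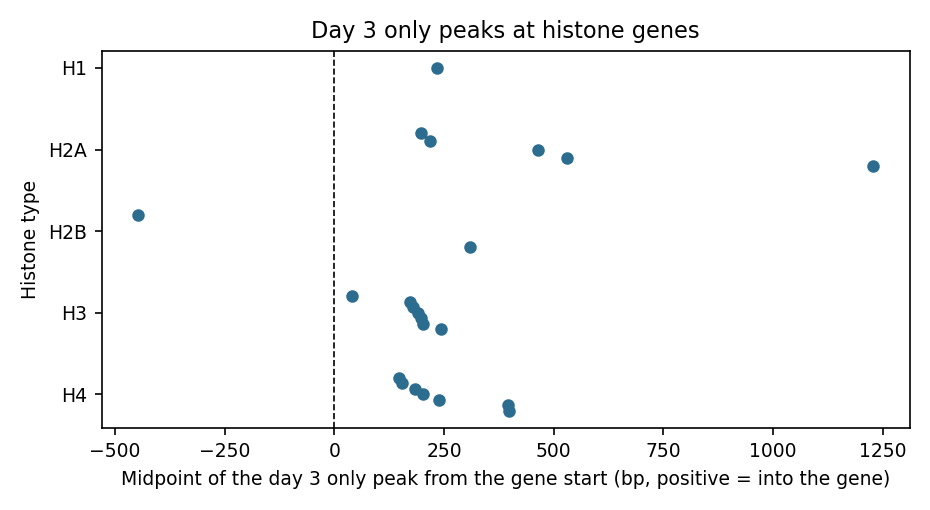
Distance of the midpoint of the day 3 only peak from the gene start (x axis, bp, positive into the gene) for histone genes with a start in the promoter table, by type (y axis). Each point is a gene, neighbours can share a peak, and the H3 and H4 points lie between 40 and 397 bp.

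Few members lay at small RNA genes, but the highest-scoring of all members did. The highest member score at an end of a protein-coding gene, 1121 (rank 199), belonged to a peak (chr6:124740771-124741330) that covered the whole of Rnu7 (gene ID 19866; chr6:124741225-124741286) as well as an end of Grcc10 (gene ID 14790). Rnu7 is the U7 small nuclear RNA, which guides the cleavage of the 3′ ends of replication-dependent histone transcripts. The nearest peaks of other lists were 4.12 kb (day 6), 5.45 kb (ESC Oct4) and 12.3 kb (ESC Oct1) away. The window printed above was set by the start of Grcc10, so its lack of an octamer is not a reading of the Rnu7 promoter. The highest score of all members, 2058 (rank 104), belonged to a peak (chr12:54713791-54714300) 173 bp from an end of an annotated small nuclear RNA gene, LOC115488065, with Eapp the nearest protein-coding gene, 18146 bp away. In all, 4 members lay within 1 kb of a small nuclear RNA gene (of 39 day 3 peaks that did), 2 of a tRNA gene (of 11), 6 of a snoRNA gene (of 16) and 4 of a miRNA gene (of 30). These counts are to be read against the 16.8% of all day 3 peaks that were members, and were too small for more than a description.

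Among signalling genes, those of the FGF pathway, which patterns the primitive streak and the presomitic mesoderm, had members at 4 of 31 gene ends (12.9%, where 1.09% of all protein-coding genes did). Any day 3 Oct1 peak was listed at the ends of 9 of the 31 (29.0%, against 14.0% of all protein-coding genes). A day 6 Oct1 peak was listed at the ends of 17 (54.8%, against 29.5%). Fgf8 (gene ID 14179), a ligand of the streak and tail bud, had a peak of score 434 (percentile 81.8; chr19:45742761-45743270) 74 bp from its end. No peak of another list lay within 32.7 kb of it. Spred2 (gene ID 114716), an inhibitor of the Ras pathway downstream of FGF receptors, had a peak of score 433 (chr11:19923851-19924430) 302 bp from its end, with a day 6 peak 0.56 kb away. A second member lay 4297 bp from Spred2 with a score of 46. The ligand Fgf18 (score 95) and the target Etv4 (score 63), an ETS factor, had weak ones. The receptor gene Fgfr1 had one inside (score 80) with peaks of all other lists within 0.83 kb, and Fgfr3 was the nearest gene of another (score 115) 14054 bp away. With the upper 50% of day 3 scores alone, Fgf8 and Spred2 were the FGF genes with a member.

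Early mesoderm genes were near several members. Of 28 such genes, 1 had a member at an end (3.57%, against 1.09% of all protein-coding genes), 3 had it at an end or inside (10.7%, against 2.54% of all protein-coding genes), and 6 were the nearest gene of a member (21.4%, against 3.45%). A nearest gene counts at any distance, and such shares, here and below, were not adjusted for the spacing of genes. Cdx2 (gene ID 12591), a homeobox gene of the posterior embryo, was the case at an end, with a score of 455 (rank 812; chr5:147307071-147307630) 101 bp from the gene. It is the promoter shown above with an octamer inside the peak, and its nearest peaks elsewhere were 18.2 kb or more away. Among 10 genes set down as earlier Oct1 targets outside the histones, Cdx2 alone had a member (10%, against 1.09%). Of those 10, 7 had some day 3 peak at an end (70%, against 14.0% of all protein-coding genes). Lhx1, a LIM homeobox gene of lateral mesoderm, had a member inside (score 199) and another 60171 bp away (score 331). Pdgfra, a receptor gene of paraxial mesoderm, had one inside (score 67). T, which encodes Brachyury, was the nearest gene to a peak of score 141 at 24469 bp, and an ESC Oct1 peak lay 1.38 kb from that peak. Msx2 (score 191, 18901 bp) and Tbx3 (score 98, 34154 bp) were likewise nearest genes at a distance.

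Among genes of later mesoderm and of the body axis, members lay at the ends of 1 of 24 presomitic and somite genes (4.17%) and 2 of 39 Hox genes (5.13%), against 1.09% of all protein-coding genes. Of the 24 presomitic and somite genes, Pax7, a factor of the dermomyotome and of muscle precursors, had a member at an end (score 97), and Tcf15 was the nearest gene of another 5958 bp away (score 102). Of 39 Hox genes, Hoxb7 and Hoxb8 shared a peak of score 312 (chr11:96285221-96285940), with a day 6 peak 1.76 kb off, and Hoxd11 held one inside (score 289). Among 25 neural genes Pax6 held one inside (score 77), and among 11 endoderm genes Foxa1 did (score 58), where 2.54% of all protein-coding genes had a member inside or at an end. None of the 25 pluripotency genes had a member at an end or inside, and 2 were nearest genes (8%, against 3.45% of all protein-coding genes), namely Tbx3 and Utf1 (score 120, 5668 bp, with an ESC Oct1 peak 0.12 kb from the peak).

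In the TGF-beta, BMP, Nodal and Smad list, no member lay at an end of the 46 genes. Some day 3 Oct1 peak lay at an end of 14 of them (30.4%, against 14.0% of all protein-coding genes). With members at the ends of 1.09% of all protein-coding genes, a count of 0 in this list, or in the Wnt and Notch lists that follow, does not set the list apart. Smad6, an inhibitory Smad, held a weak member inside (score 44, with an ESC Oct4 peak 0.48 kb away) and was the nearest gene of another (score 70). Smad2, a receptor-regulated Smad, was the nearest gene to a member 89732 bp away (score 64). In the Wnt and R-spondin list, no member lay at an end of the 51 genes and 3 held one inside (5.88%, against 2.54% of all protein-coding genes with a member inside or at an end). The Wnt co-receptor gene Lrp5 (gene ID 16973) held a strong one (score 666, percentile 90.9; chr19:3648931-3649510), 37365 bp from its nearer end, with an Oct4 peak 3.78 kb away. The ligand genes Wnt3 (score 81) and Wnt3a (score 58) held weak ones, and Ctnnb1, which encodes beta-catenin, and Sfrp1, a secreted inhibitor, were nearest genes at 66685 and 20718 bp. In the Notch list the ligand gene Dll4 (score 73) and the receptor gene Notch2 (score 98) held members inside (6.25% of the 32, against the same 2.54%), and none of the 32 had one at an end.

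Among POU genes, Pou2f3 (gene ID 18988), a paralogue of Oct1 found in epidermal and tuft cells, had a member 225 bp from its end (score 661, rank 446; chr9:43205721-43206240), which is 1 of 16 POU genes (6.25%, against 1.09% of all protein-coding genes). Its nearest peaks elsewhere were 3.85 kb (ESC Oct1), 4.01 kb (ESC Oct4) and 33.3 kb (day 6) away. Pou3f1 (score 40, 70726 bp) and Pou4f3 (score 337, 20607 bp) were nearest genes at a distance, which makes 3 of the 16 the nearest gene of a member (18.8%, against 3.45%, not adjusted for the spacing of genes).

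Counts of members in housekeeping groups were small, and are to be read against members at the ends of 1.09% of all protein-coding genes, and inside or at the ends of 2.54%. Any day 3 peak was listed at the ends of 14.0% of all protein-coding genes. Of 42 chromatin regulators 16 had a day 3 peak at an end, and none had a member at an end or inside. The same held for the 30 stress genes, of which 12 had a day 3 peak. Of 84 cytosolic ribosomal protein genes, 17 had a day 3 peak and 2 a member, Rps27a (score 154) and Rpl36 (score 135). The Rpl36 peak had its midpoint inside the neighbouring gene Lonp1. Of 79 oxidative phosphorylation genes, 14 had a day 3 peak and 2 a member, Ndufs3 (score 97) and Sdhd (score 77). The Ndufs3 peak had its midpoint inside Kbtbd4. Of 41 genes of RNA polymerase II and the general factors, 9 had a day 3 peak and Taf4 held a member inside (score 91). Of 29 glycolysis genes, 5 had a day 3 peak, Pdk2 had a member at an end (score 110), and the hexokinase genes Hk1 (score 63) and Hk2 (score 104) held one inside. The shares with a member at an end, 2.38% of the ribosomal, 2.53% of the oxidative phosphorylation and 3.45% of the glycolysis genes, were above that of all protein-coding genes but rest on 1 or 2 genes each. At lists of 42 and 30 genes, a share like that of all genes would not be told apart from 0.

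The strongest members at the ends of other protein-coding genes were at Defb36 (score 851), a defensin gene, Ubald1 (score 726) and Iqsec3 (score 692). The nearest peak of another list was 21.5 kb from the first, 12.7 kb from the second and 25.4 kb from the third. Away from protein-coding gene ends, the leading member after the small nuclear RNA site lay inside Igdcc4 (gene ID 56741; chr9:65109201-65109870, score 1357), 8512 bp from its end and 3.27 kb from an Oct4 peak. The next (score 1172) lay 4284 bp from an end of the long noncoding RNA gene Lncpint and 188020 bp from Klf14, its nearest protein-coding gene. A member of score 943 lay 60251 bp from Mef2c, which encodes a MADS factor of heart and muscle. Members inside Lmx1b, a LIM homeobox gene, and Flt1, a VEGF receptor gene, scored 921 and 725. The Mef2c peak had an ESC Oct1 peak 1.64 kb away and a day 6 peak 1.72 kb away, so the neighbourhood was not free of other listed peaks. Syt8 (score 765), Klhl3 (score 586) and Btbd11 (score 503) were the nearest genes of the others among the 10 highest.

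Members were spread thinly over genes. They had 755 different nearest protein-coding genes (3.45% of 21887), of which 699 were named by 1 member, 49 by 2 and 7 by 3 or more. The last 7 genes were 95.6 to 1185 kb long. Slit3, which encodes an axon guidance cue, spans 587 kb and held 4 members with scores from 54 to 131. Cdh13 and Shank2 (448 kb) each held 3, all with scores of 114 or less, and Myo18b, Rgs3 and Zfp516 had 3 each, in part outside the gene. Zhx2 had 3, all outside the gene. The highest score in this group was 311, in a peak 217 bp from an end of Zhx2. Of the 239 genes with a member at an end, 20 also had a day 6 Oct1 peak at an end, 15 an ESC Oct1 peak and 21 an ESC Oct4 peak, at another site of the gene. The shares for day 6 and ESC Oct1, 8.37% and 6.28%, stand beside 29.5% and 8.52% of all protein-coding genes, but the rule leaves out sites where such a peak overlaps, so nothing is read from them.

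By chromosome, the share of members had an interval that held the share of the other day 3 peaks except on chromosomes 10, 12, 13, 17 and X. Members were lower on chromosomes 10 (3.05%, 1.98 to 4.47, against 4.84%) and 17 (3.17%, 2.08 to 4.62, against 5.04%) and higher on chromosome 12 (5.01%, 3.62 to 6.73, against 3.43%). Chromosome 11 held 112 members (13.7%, 11.4 to 16.2) and 13.7% of the other day 3 peaks, against 7.35% of protein-coding genes. Chromosome 13 held 49 (5.98%, 4.46 to 7.83), against 3.90% of the other day 3 peaks, and 17 of the 49 lay at histone genes. Chromosome X held 19 members (2.32%, 1.40 to 3.60), against 1.38% of the other day 3 peaks, just outside the interval, and 4.41% of genes. The intervals were not corrected for the number of chromosomes compared. They treat peaks as independent and leave out the error of the other share.

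The octamer was present in 8 of the 212 promoters that members overlapped (3.77%, 1.64 to 7.30), against 1.74% of all 32851 promoters of the same length. Promoters under day 3 peaks shared with ESC Oct1 held it in 76 of 604 cases (12.6%, 10.04 to 15.5), and those under peaks shared with day 6 and no ESC list in 31 of 2369 (1.31%, 0.891 to 1.85). Of the 8, the octamer lay wholly inside the peak in 6, namely Cdx2, H2bc6, Upk3a, Cfap58, Pcyt1b and Tmsb4x. All of these 8 promoters had peaks at or above percentile 43.0 of the score, and among members in the upper 50% of scores 8.24% of promoters held the octamer. With the other lists limited to the upper 50% of their scores, which makes more day 3 peaks members, the share was 1.87% (14 of 748). Allowing any base at N in ATGCNAAT, which includes the octamer, gave 9 promoters (4.25%), against 3.15% of all. The centre of the palindromic POU element (GCATATGC) was in 0 of the 212 and 0.207% of all promoters, and ATGCAT, a part of it, was in 8 (3.77%) and 5.04%. Without histone promoters the share of the octamer was 2.63% (5 of 190, 0.860 to 6.03). Members at gene ends without a promoter in the table could not be searched, since 186 of 239 such genes had one, and peaks away from gene starts were not searched.

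Other elements were compared in the same way. The GC box (GGGCGG) was in 64.6% of member promoters (57.8 to 71.0), 85.8% of those shared with day 6 and no ESC list, and 35.7% of all promoters. The CCAAT box was in 42.0% (35.3 to 48.9), against 56.1% (52.1 to 60.1) of promoters at day 3 peaks shared with ESC Oct1 and 37.4% of all. Among the 22 member promoters of histone genes, 16 had a CCAAT box, 11 a TATA box (TATAAA) and 3 the octamer. The 29 histone promoters under shared day 3 peaks alone had them in 28, 20 and 9 cases. Over all member promoters the TATA box was in 19 (8.96%, 5.48 to 13.6), against 13.6% of all promoters. The Smad sequence CAGACA was in 20.3% of member promoters (15.1 to 26.3), where 21.0% of all promoters held it, and in 10 of the 22 at histone genes, against 14 of the 29 histone promoters under shared day 3 peaks alone. It was in 11.6% (10.3 to 12.9) of those shared with day 6 and no ESC list, and in 21.7% (15.5 to 28.9) of those shared with ESC Oct1 and not day 6. The GC-rich Smad sequence GGCGCC was in 53 of the 212 (25%, 19.3 to 31.4), against 11.9% of all promoters and 27.5% of those shared with day 6 and no ESC list. The palindromic Smad element GTCTAGAC was in none of the 212, and in 0.213% of all promoters. The elements of NRF1 (GCATGCGC) and of ETS factors (CCGGAAGT) were in 17 and 11 member promoters (8.02% and 5.19%), against 2.71% and 3.89% of all. Promoters under peaks shared with day 6 and no ESC list held them in 9.71% and 6.46% of cases, and those under peaks shared with ESC Oct1 held each in 6.46%. The cyclic AMP element (TGACGTCA) was in 5 (2.36%, against 1.79%), the E-box (CACGTG) in 19 (8.96%, against 7.15%) and the YY1 element (AAGATGGC) in 6 (2.83%, against 2.75%). These are matches of letters in a fixed window and say nothing of binding.

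The palindromic core CTCGCGAG, an element bound by ZBTB33, was in 14 of the 212 member promoters (6.60%, 3.66 to 10.8), against 0.919% of all promoters. Promoters under day 3 peaks shared with day 6 and no ESC list held it in 2.57% of cases (1.98 to 3.30), and those under peaks shared with ESC Oct1 in 2.81% (1.65 to 4.47). Those under the small class shared with ESC Oct4 and not ESC Oct1 held it in 4 of 28 cases (14.3%, 4.03 to 32.7), so the element was not particular to the day 3 only promoters. It was picked out from 16 motifs after the values were seen. The 14 promoters belong to 12 genes and lie under 10 peaks, since neighbouring or alternative promoters share a peak, and all 14 had the element inside the peak. The highest scores among them were at Mob1a (415), a cofactor of the Hippo kinases, Scamp5 (363), a vesicle protein gene, Mapk14 (320), which encodes the kinase p38 alpha, and Sap18 (261). The Mapk14 peak had its midpoint inside Slc26a8, 8 bp from the end of that gene. None of the 14 held the octamer ATGCAAAT.

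**Figure D5:**
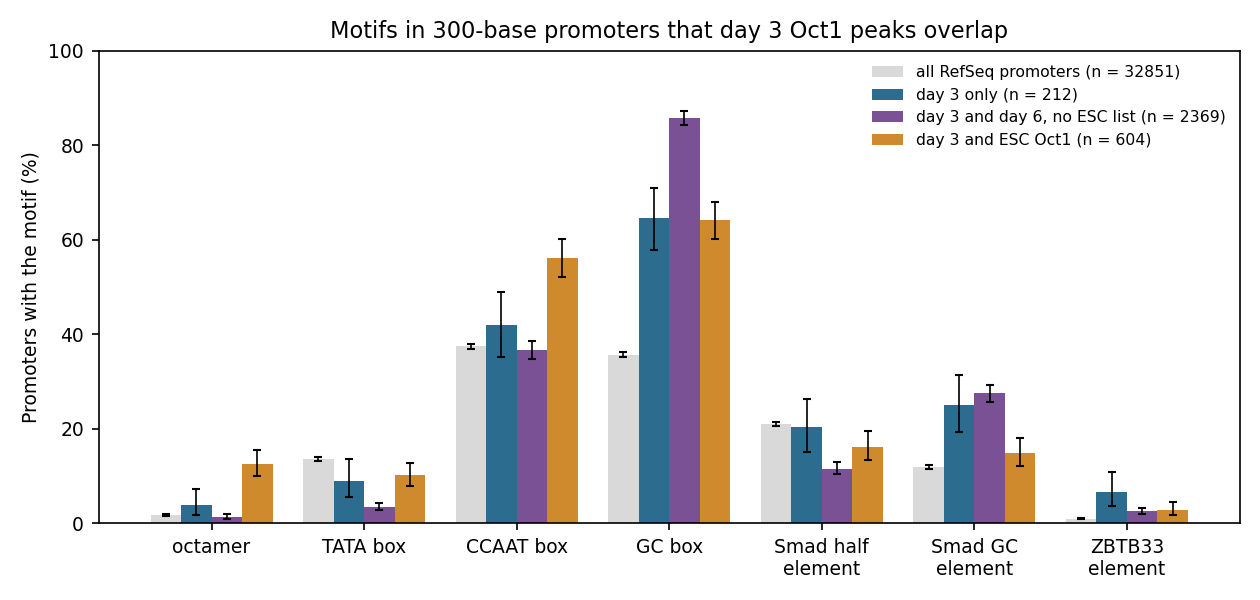
Share of 300-base RefSeq promoters with a motif on either strand (y axis, %), for all promoters and for those that 3 classes of day 3 Oct1 peaks overlap (bars with exact 95% intervals). Of the pair of Smad elements, the left is CAGACA and the right GGCGCC. The day 3 only promoters held the octamer in 3.77% of cases, and those shared with ESC Oct1 in 12.6%.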

How the data were processed

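The authors deposited 1 peak list per ChIP-seq library, with chromosome, start, end, name and a score, a whole number per peak of unstated scale. Reads were aligned with Novoalign 3.8.2 to mm10, per the submitters' processing notes; the peak caller, its threshold and the control are not given in the sources used here, and the depth behind each peak is unknown. The 3 input samples were not analysed here. Peaks sharing 1 bp or more counted as overlapping, computed in Python 3.11.15 (numpy 2.4.6, pandas 2.3.3), tested on simulated data, and bedtools 2.31.1 gave the same 819 peaks. Intervals used scipy 1.17.1. Coordinates are 1-based. Genes and promoters came from RefSeq GRCm38.p6 tables. They gave both ends of each gene, and a start with strand for 17492 of 21887 protein-coding genes. Distances to genes run from peak midpoints, and those between peaks from edge to edge.

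The report spells out the 16 motifs, each searched on both strands. The 19 gene lists comprised 1 symbol (Tbxt) that the table carries as T. Members and lists were chosen with earlier results of these data known. Genes named are the 12 highest-scoring members at protein-coding gene ends, the 10 highest elsewhere, list genes with a member inside or at an end, genes nearest to 3 or more members, the 3 peaks on either side of the rule's edge, and the printed promoters. List genes that were nearest genes alone, small RNA genes and the other promoters with an octamer or a ZBTB33 element were named after their values were seen.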

Additional observations from a re-analysis of the deposited data

How the results depend on the processing

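In all, 7 results were recomputed under alternatives, giving 50 values, of which 36 stayed within their interval or, for counts, within 1.5 times. Of the gene lists, the histone and FGF lists were recomputed. Leaving out the peaks at histone genes was chosen after the data were seen, and moved none of the 3 results it was applied to. Counting as shared only the upper 50% of scores in the other lists gave 1730 members, 1560 nearest genes, a median score percentile of 25.9 and 43.8% at gene ends. Using only the upper 50% of day 3 scores gave 162 members, 159 nearest genes, a median percentile of 71.0, 61.1% at gene ends, 8.24% of promoters with the octamer and 2 FGF genes. The share at gene ends was 54.0% within 5 kb and 26.5% for protein-coding genes alone. Histone genes with a member numbered 7 without day 3 peaks within 10 kb of another, and 47 when a member within 10 kb of the gene counted. The cause of these changes was not tested, except where the setting itself keeps fewer peaks or widens the window. No paired analysis was possible because each group had 1 library. Depth is unknown, so absence from a list is not absence of binding.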
